A study of Mus musculus with 90 samples.

Results

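Interferon-stimulated genes are the genes a cell switches on when an interferon binds its receptor. Their level was measured here in mouse liver RNA across diet, genotype, time of day and corticosterone treatment. The rule named 41 of them by symbol, and 40 of the 41 were matched among the 27654 genes of the count tables. Gbp6 was matched to no gene identifier and is not analysed here. Of the 40 matched genes, 39 passed the filter on low counts in each comparison, and Rtp4, a chaperone of taste and odorant receptors, did not: it had counts in 19 of 90 libraries.

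Interferons of types I and III are made by cells that sense viral nucleic acid, and interferon gamma is made mainly by lymphocytes. Their receptors act through Jak kinases and Stat transcription factors, with Irf9 as a DNA-binding partner of Stat2, and the induced genes sense viral RNA, block translation and assembly of viruses, attack the vacuoles of intracellular parasites and prepare peptides for display on MHC class I. Hepatocytes and Kupffer cells, the resident macrophages of the liver, both respond to interferons, and glucocorticoids are used as drugs against inflammation in which these genes are active.

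The study asked how the glucocorticoid receptor (GR, gene Nr3c1) takes part in the response of the liver to reduced food intake. Poly(A) RNA was sequenced from livers of C57BL/6J mice, which per the paper were male. The time series holds 78 libraries at ZT0, ZT4, ZT8, ZT12, ZT16 and ZT20 (zeitgeber time, hours after lights on), and 6 libraries each come from a diet experiment and a corticosterone (CORT) experiment in WT mice at ZT12.

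In the time series, the genotypes are GRfl/fl, called WT, and GRfl/fl x Alb-Cre, called GR LKO. The control diet is night-restricted feeding of chow, with 22 WT and 20 GR LKO livers in groups of 3 or 4. Caloric restriction is night-restricted feeding with an intake lowered over weeks to 40% fewer calories, with 18 WT and 18 GR LKO livers in groups of 3. Alb-Cre deletes the floxed gene in hepatocytes, so that GR stays in the other cells of these livers, and WT mice carry the floxed alleles without Cre. The mice of the diet and CORT experiments carry the genotype WT with no floxed allele named. The 3 control livers of the diet experiment have titles with AL and a treatment label of night-restricted feeding, and they are called control here. The CORT experiment compared 3 livers labelled with corticosterone supplementation with 3 livers labelled with night-restricted feeding, and per the paper the latter were injected with vehicle. Library totals were 10.1 to 17.1 M counts for the control diet of the time series, 14.2 to 20.8 M for its caloric restriction, 36.4 to 39.5 M for the diet experiment and 13.7 to 16.1 M for the CORT experiment. At these depths, 3 counts correspond to at most 0.298 CPM (counts per M of the scaled library total), a limit that covers counting error only.

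Nr3c1 was checked first. On the control diet it lay at 73.0 to 118 CPM with a median of 87.2 in WT livers and at 16.3 to 29.0 CPM with a median of 21.5 in GR LKO livers, and on caloric restriction at 70.1 to 113 CPM with a median of 93.8 in WT and 21.4 to 32.1 CPM with a median of 24.9 in GR LKO. No GR LKO liver reached the lowest WT liver, so the levels match the genotype labels. In the diet experiment it stood at 88.7, 90.3 and 95.7 CPM in control and 84.3, 88.4 and 86.6 CPM in restricted livers, and in the CORT experiment at 74.1, 77.4 and 69.4 CPM in control and 61.7, 83.8 and 65.9 CPM in CORT livers. Fkbp5, which GR induces and whose protein holds the receptor in check, served as a readout of GR activity. It measured 46, 58.1 and 88.9 CPM in control and 313, 377 and 302 CPM in restricted livers, and 52.8, 41.6 and 19.9 CPM in control and 216, 294 and 198 CPM in CORT livers.

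Hepatocyte markers were high in every library, with albumin (Alb) the most abundant of the 7. In the time series the control diet and caloric restriction were sequenced as separate sets of libraries, so diet and library set cannot be told apart there, and the diets are compared in the diet experiment, with the time series as an alternative. Because this is bulk RNA, fewer cells of a type and less RNA per cell cannot be told apart. A near copy can share reads with Ifit3 (Ifit3b), Oas1a (Oas1g) and the Gbp and Irgm genes, so their levels are uncertain. In GENCODE M21, Igtp and Irgm2 start 62 bases apart on the same strand, Psmb9 and Tap1 overlap head to head by 211 bases, and Parp9 and Dtx3l by 681 bases. The labels name the TruSeq RNA v2 kit and the paper also a stranded protocol, and whether the quantification used strand is not stated, so reads within those overlaps may be assigned to either gene.

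A few libraries stood apart from their group over the interferon-stimulated genes as a whole. Replicate 1 of WT at ZT4 on caloric restriction was above its group mean in 39 of 39 genes, with a median deviation of 0.79 on the log2 scale against -0.01 over all genes. Replicate 1 of GR LKO at ZT20 on caloric restriction was above in 38 of 39, with a median of 0.65. Both were the high libraries of groups of 3. Among control-diet libraries, replicate 3 of GR LKO at ZT4 deviated by 0.44, replicate 4 of WT at ZT20 by 0.42 and replicate 3 of WT at ZT0 by 0.40. Low libraries were found in the same groups on caloric restriction, whose means include the high ones: replicate 3 of GR LKO at ZT20 deviated by -0.54, with 2 of 39 genes above the mean, and replicate 3 of WT at ZT4 by -0.41. The fits without the libraries that stood apart leave out the 5 high libraries. The summed level of 11 Kupffer cell and macrophage markers was the highest of its group in each of the 5 high libraries, at 356 CPM against at most 176 CPM for ZT4 WT and at 394 CPM against at most 139 CPM for ZT20 GR LKO on caloric restriction. For the control-diet libraries it was 376 CPM against at most 319 CPM, 273 CPM against at most 235 CPM and 311 CPM against at most 240.0 CPM in the same order. The 10 lymphocyte markers summed to 10.1, 12.7, 6.57, 17.0 and 12.6 CPM in these 5 libraries, the highest of the group in 4 of them. Sums of other cell types were ranked without a test. The neutrophil sum was the highest of its group in 5 of 5, and the monocyte and dendritic, stellate and cholangiocyte sums in 4 each. Monocyte and dendritic markers summed to 11.1, 15.2, 4.40, 6.05 and 12.6 CPM. The ZT4 GR LKO library on the control diet had the lowest stellate and cholangiocyte sums of its group, 159.7 and 28.4 CPM. Its hepatocyte sum, 77260 CPM, was the highest of its group. In ZT4 WT and ZT20 GR LKO on caloric restriction the hepatocyte sum was the lowest of its group, at 108800 and 104700 CPM. The same held for ZT0 WT on the control diet, at 83130 CPM. The endothelial sum was the highest of its group only in the GR LKO libraries. A high marker sum also occurred without high interferon-stimulated genes. Replicate 2 of WT at ZT8 on caloric restriction had the highest Kupffer cell and macrophage sum of all libraries, 428 CPM, and deviated by -0.15 with 10 of 39 genes above the mean, and replicate 2 of GR LKO at ZT0 had 345 CPM and deviated by -0.02. The part of these cells in the deviations was not tested.

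To set the genes in order, their levels were compared per kilobase of exon in the 22 WT livers on the control diet. Bst2, a membrane tether of budding virus particles, had the highest median at 106 CPM per kb, ahead of Ifi27, a mitochondrial protein, at 42.6 CPM per kb and the GTPase Iigp1 at 36.8 CPM per kb. Lgals3bp, a secreted galectin-3 ligand, followed at 15.8 CPM per kb and the proteasome subunit Psmb10 at 12.4 CPM per kb. The lowest medians above 0 were those of Oasl2 at 0.380 CPM per kb and Ifi44 at 0.205 CPM per kb, and Rtp4 had a median of 0. The livers of the 22 spread from 30.99 to 64.5 CPM per kb for Ifi27 and from 25.1 to 53.6 CPM per kb for Iigp1, so these neighbours in the order overlap, while the lowest value of Bst2, 92.6 CPM per kb, lay above both.

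The interferons themselves were at the limit of detection. Of 10 ligand genes looked for, Ifnb1, Ifna1, Ifna2, Ifna4, Ifna5, Ifnl2, Ifnl3 and Ifne had 0 counts in all 90 libraries, which allows up to 0.298 CPM per library at the lowest depth. Ifng had 32 counts spread over 21 libraries, with a highest value of 0.306 CPM, and Ifnk had 10 counts over 8 libraries. None of the 10 passed the filter for a test.

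Caloric restriction lowered most of the interferon-stimulated genes of WT livers at ZT12. In the diet experiment, 33 of 39 genes were called lower at an adjusted p under 0.05 and 0 higher by edgeR, while 23.6% of the 13062 genes tested were called lower and 23.5% higher. DESeq2 also called 33 lower and 0 higher, and 35 of 39 had an unadjusted p under 0.05. The median log2 fold change of the 39 was -1.12, and that of all genes 0.

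The RNA sensors were all lower: 4 of 4 were called, with a median log2 fold change of -1.94. In this comparison the genes named beside Psmb9, Oasl1, Ifit1 and Isg15 were chosen after their values were seen. Dhx58 and Ifih1, which detect double-stranded RNA in the cytosol, changed by -2.47 ± 0.18 and -1.61 ± 0.16 (log2 fold change ± SE, here and below), Ddx58, the sensor RIG-I, by -1.06 ± 0.09 and Zbp1, a sensor of Z-form nucleic acid, by -2.27 ± 0.36. Among the transcription factors 1 of 4 was called, Irf9 at -0.68 ± 0.12. Stat2 stood at 49.3, 47.02 and 48.6 CPM in control and 46.9, 56.3 and 46.8 CPM in restricted livers, Irf1 at -0.32 ± 0.15 and Irf7 at -0.34 ± 0.21, none of which passed the test.

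Of the 16 antiviral effectors tested, 14 were called lower, with a median of -1.2. Oasl1, a relative of the oligoadenylate synthetases that limits translation of Irf7, measured 13.5, 13.1 and 12.1 CPM in control and 2.13, 1.90 and 1.75 CPM in restricted livers. The groups lay far apart, with all 3 restricted livers below all 3 controls (log2 fold change -2.74 ± 0.12, Benjamini-Hochberg adjusted p = 3.9e-05, quasi-likelihood test of edgeR). Ifit1, which binds viral RNA that lacks the host cap, measured 13.7, 13.0 and 10.9 CPM in control and 2.61, 1.76 and 1.58 CPM in restricted livers. Again no restricted liver came near a control (log2 fold change -2.66 ± 0.20, Benjamini-Hochberg adjusted p = 1.9e-04, quasi-likelihood test of edgeR). Isg15, a ubiquitin-like protein attached to other proteins, measured 10.7, 8.37 and 6.56 CPM in control and 1.65, 1.59 and 1.09 CPM in restricted livers. Its groups did not overlap either (log2 fold change -2.57 ± 0.24, Benjamini-Hochberg adjusted p = 3.9e-04, quasi-likelihood test of edgeR). Bst2 and Oas1a, an oligoadenylate synthetase, were the effectors not called, at -0.37 ± 0.16 and -0.70 ± 0.27.

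The immunoproteasome and peptide transport genes were called lower in 4 of 4, with a median of -1.70. The immunoproteasome replaces catalytic subunits of the proteasome to favor peptides that fit MHC class I, and Tap1 is a subunit of the pump that carries these peptides into the endoplasmic reticulum. Psmb9 measured 25.9, 26.5 and 16.2 CPM in control and 5.22, 3.13 and 1.33 CPM in restricted livers. The restricted livers were all below the controls, though both groups spread widely (log2 fold change -2.83 ± 0.42, Benjamini-Hochberg adjusted p = 0.002, quasi-likelihood test of edgeR). Tap1, Psmb8 and Psmb10 were also called, at -2.28 ± 0.22, -1.12 ± 0.22 and -0.71 ± 0.16. The GTPases, which act on the membranes around intracellular pathogens, were called lower in 7 of 8, from -2.07 for Ifi47 to -0.97 for Gbp3, and Gbp2 was at 0.15 ± 0.14. Parp9, Parp14 and Dtx3l, of which Parp9 and Dtx3l form a complex that modifies ubiquitin with ADP-ribose, were called lower in 3 of 3, between -0.61 and -0.97.

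The size of this difference depended on the set of libraries. Between the WT ZT12 livers of the time series, where diet and library set cannot be told apart, 19 of 39 genes were called, 18 lower and 1 higher (Gbp2 at 1.1, named after its value was seen, with 0.15 and no call in the diet experiment), with a median log2 fold change of -0.55 where the diet experiment had -1.12. Over all genes, 4398 of the 11550 tested in this comparison were called in either direction. Ifit1 changed there by -1.36 and Psmb9 by -1.62. The values of Rsad2 (0.66), Trim30a (0.53), Gbp3 (0.23) and Ifi44 (0.09) had the opposite sign without passing the test. Scaling by library totals without TMM moved the median of all genes in the diet experiment by -0.122 and that of the 39 genes to -1.24, with 35 called lower.

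**Figure D1:**
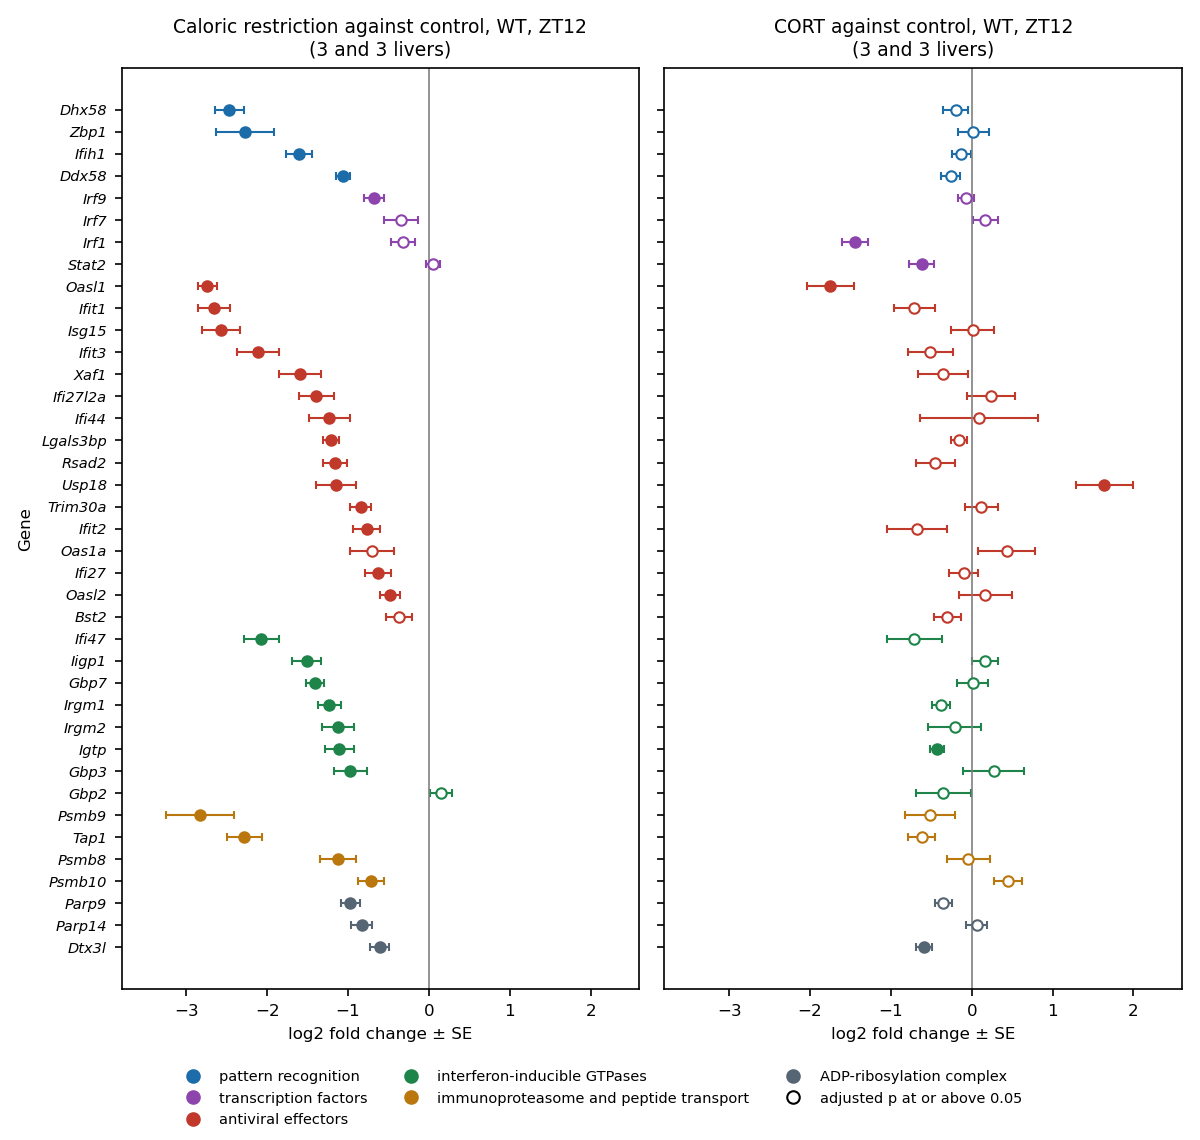
Log2 fold change (horizontal axis) with its SE for 39 interferon-stimulated genes (vertical axis, colored by role and ordered by the diet value within a role) in the diet experiment on the left and the CORT experiment on the right, each 3 livers against 3 WT livers at ZT12. Filled points have an adjusted p under 0.05 by edgeR: 33 lie below 0 with caloric restriction, and 5 below and 1 above 0 with CORT.

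Other genes of the pathway were set beside the 23.6% of all genes called lower and 23.5% called higher with diet. Of 17 inducers and inhibitors, 5 were called lower and 3 higher. Irf5 at -1.85 and Ticam1, an adaptor of Toll-like receptors, at -0.79 were lower, as were Irf3 (-0.46), Nlrc5 (-1.38) and Ciita (-1.27), the last 3 named after their values were seen. Nfkbia, an inhibitor of NF-kB that GR induces, was higher at 1.2, with Myd88 at 0.48 and, also named after its value was seen, Tlr7 at 0.95. Of 37 further interferon-stimulated genes, 20 were called lower and 2 higher. Ube2l6, the enzyme that conjugates Isg15, was at -1.10 ± 0.07 and Eif2ak2, the kinase PKR, at -0.73 ± 0.07. The higher ones were Ifitm1 (0.95) and Ifi204 (0.45), named after their values were seen. Of 17 antigen presentation genes 7 were called lower and 0 higher by edgeR, with 11 at an unadjusted p under 0.05, among them Tap2 at -0.91 and Tapbpl at -0.76.

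Markers of other cells were measured beside this. Of 11 Kupffer cell and macrophage markers 1 was called, Cd5l at -0.50, and their sum was 188, 159 and 198 CPM in control and 126, 198 and 179.6 CPM in restricted livers, with Clec4f the most abundant and none at 0. These sums overlapped. The 10 markers of T, NK and B lymphocytes summed to 6.24, 7.35 and 5.97 CPM in control and 1.59, 1.95 and 1.805 CPM in restricted livers. Of these, 5 were tested and 2 called lower, the most abundant in controls was Cd4 at 2.97 CPM, and none was at 0. The hepatocyte sum was 81860, 82610 and 85250 CPM in control and 146900, 150300 and 152600 CPM in restricted livers, and 5 of 6 endothelial markers were called higher, with sums of 119.8, 154 and 155 CPM and 209, 208 and 242 CPM. The stellate sums, 193, 200 and 163 CPM in control and 278, 247 and 284 CPM in restricted livers, did not overlap, with 2 of 5 called higher, and neither did the neutrophil sums, 1.84, 1.83 and 2.15 CPM and 1.14, 1.59 and 1.66 CPM, with 0 of 1 tested called by edgeR and 0 at an unadjusted p under 0.05. The monocyte and dendritic sums and the cholangiocyte sums overlapped. The part of cell composition in the lower interferon-stimulated genes was not tested.

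CORT injection tested whether more ligand of GR at ZT12, without less food, changes these genes. Of the 39 genes, 5 were called lower and 1 higher by edgeR, where 3.64% of the 11523 genes tested were called lower and 4.47% higher. The median log2 fold change of the 39 was -0.20, against -0.01 over all genes. DESeq2 called 7, of which 1 was higher. The CORT and control livers are not those of the diet experiment, so each comparison has its own controls.

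Irf1, a transcription factor of the interferon gamma response, measured 28.9, 22.6 and 21.8 CPM in control and 10.3, 8.06 and 8.61 CPM in CORT livers. All 3 CORT livers were below all 3 controls (log2 fold change -1.44 ± 0.16, Benjamini-Hochberg adjusted p = 0.0039, quasi-likelihood test of edgeR). Oasl1 measured 23.3, 15.8 and 12.3 CPM in control and 6.22, 5.45 and 3.62 CPM in CORT livers. Its groups did not overlap either, although the controls differed widely among themselves (log2 fold change -1.75 ± 0.29, Benjamini-Hochberg adjusted p = 0.016, quasi-likelihood test of edgeR). Usp18, which removes Isg15 from proteins and blocks signaling at the type I receptor, measured 3.32, 2.77 and 3.12 CPM in control and 14.8, 5.83 and 7.92 CPM in CORT livers. It was the gene called higher, and its CORT livers lay above the controls with replicate 1 well above the other 2 (log2 fold change 1.64 ± 0.35, Benjamini-Hochberg adjusted p = 0.034, quasi-likelihood test of edgeR).

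Stat2, the partner of Irf9, measured 58.3, 70.7 and 69.3 CPM in control and 48.2, 34.4 and 45.98 CPM in CORT livers. The CORT livers were all lower (log2 fold change -0.62 ± 0.15, Benjamini-Hochberg adjusted p = 0.046, quasi-likelihood test of edgeR). Dtx3l measured 47.9, 54.9 and 44.6 CPM in control and 32.3, 31.1 and 34.1 CPM in CORT livers, again without overlap (log2 fold change -0.59 ± 0.10, Benjamini-Hochberg adjusted p = 0.019, quasi-likelihood test of edgeR). Igtp, a GTPase that was named after its value was seen, measured 22.0, 23.8 and 23.2 CPM in control and 16.8, 16.6 and 17.8 CPM in CORT livers. Its groups were apart by a small step (log2 fold change -0.43 ± 0.09, Benjamini-Hochberg adjusted p = 0.035, quasi-likelihood test of edgeR).

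Calls with CORT rested on single libraries. The count of 6 became 2, 1 and 3 without control replicate 1, 2 and 3, 2 without CORT replicate 1 and 2 without CORT replicate 3, and rose to 7 without CORT replicate 2. Irf1 was called in 6 of 6 such fits and Oasl1 in 5 of 6, the exception being the fit without control replicate 2 (Benjamini-Hochberg adjusted p = 0.063, quasi-likelihood test of edgeR). Usp18 and Stat2 were called in 1 of 6, only without CORT replicate 2, Dtx3l in 2 of 6 (without control replicate 3 or CORT replicate 2) and Igtp in 0 of 6.

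Elsewhere in the pathway, beside 4.47% of all genes called higher and 3.64% lower, CORT livers had higher Stat3 (1.04, 1 of 8 receptors and kinases tested), higher Nfkbia (1.37) and Irf2 (0.66, 2 of 14 inducers and inhibitors). Of 32 further interferon-stimulated genes, the chemokine Cxcl10 (-2.24) and Tor3a (-1.34) were called lower and Ifitm2 (0.52) higher. Of 17 antigen presentation genes 0 were called by edgeR, with 5 at an unadjusted p under 0.05. The Kupffer cell and macrophage markers summed to 108, 131 and 145 CPM in control and 152, 215 and 172 CPM in CORT livers, all 3 CORT livers above the controls, with 2 of 11 called higher (Cd5l at 0.77 and Marco at 1.58), Clec4f the most abundant and none at 0. The lymphocyte markers summed to 1.58, 4.67 and 5.51 CPM and 1.85, 1.26 and 0.953 CPM, with Cd4 the most abundant and Ms4a1 at 0 in the CORT livers. The 5 neutrophil markers summed to 0.934, 1.49 and 1.93 CPM in control and 3.203, 4.68 and 3.55 CPM in CORT livers, all 3 higher, with 0 of 2 tested called by edgeR, 1 at an unadjusted p under 0.05, Csf3r the most abundant and Ly6g at 0. The endothelial sums were 95.2, 98.3 and 120.5 CPM in control and 78.2, 86.7 and 92.9 CPM in CORT livers, all 3 lower, with 1 of 6 called lower. The part of these cells was not tested.

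Loss of GR from hepatocytes was compared with WT at each time point and as a mean over the day. On caloric restriction, the mean over 6 time points was called higher in 15 of 39 genes and lower in 1, where 15.6% of the 13041 genes tested were called higher and 17.3% lower. The median log2 fold change of the 39 was 0.28, and that of all genes 0. By role, 12 of 16 antiviral effectors, 2 of 4 RNA sensors (Zbp1 and Dhx58, the latter not without the libraries that stood apart) and 1 of 8 GTPases (Gbp3) were called higher. The immunoproteasome and peptide transport genes were called in 0 of 4 and the Parp9, Parp14 and Dtx3l set in 0 of 3 by edgeR, with 1 and 0 at an unadjusted p under 0.05.

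Zbp1 ranged from 1.19 to 26.7 CPM with a median of 4.17 in 18 WT livers and from 3.74 to 29.4 CPM with a median of 9.24 in 18 GR LKO livers. The ranges overlap, with replicate 1 of WT at ZT4 the highest WT liver at 26.7 CPM. The mean of log2 CPM was higher in GR LKO at 6 of 6 time points, the mean of CPM at 5 of 6, the exception being ZT4 (log2 fold change 1.01 ± 0.20, Benjamini-Hochberg adjusted p = 2.8e-04, quasi-likelihood test of edgeR). Ifi44, a cytosolic protein induced by type I interferon, ranged from 0.693 to 5.89 CPM with a median of 2.02 in WT and from 1.22 to 14.6 CPM with a median of 2.99 in GR LKO livers, overlapping as well and with a higher mean in GR LKO at 6 of 6 time points (log2 fold change 0.96 ± 0.22, Benjamini-Hochberg adjusted p = 9.9e-04, quasi-likelihood test of edgeR). Usp18 ranged from 1.95 to 15.9 CPM with a median of 7.26 in WT and from 7.41 to 28.2 CPM with a median of 12.2 in GR LKO livers. Here the lowest GR LKO liver lay near the WT median, and the mean was higher at 6 of 6 time points (log2 fold change 0.89 ± 0.16, Benjamini-Hochberg adjusted p = 9.9e-05, quasi-likelihood test of edgeR). Ifit1 ranged from 0.953 to 11.4 CPM with a median of 5.16 in WT and from 3.16 to 33.6 CPM with a median of 8.53 in GR LKO livers, overlapping, with a higher mean at 5 of 6 time points (log2 fold change 0.85 ± 0.17, Benjamini-Hochberg adjusted p = 3.0e-04, quasi-likelihood test of edgeR).

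Stat2 was the gene called lower, and its step was small. It ranged from 36.9 to 91.0 CPM with a median of 53.2 in WT and from 34.04 to 87.9 CPM with a median of 50.03 in GR LKO livers, almost the same span, with a lower mean of log2 CPM at 6 of 6 time points (log2 fold change -0.15 ± 0.05, Benjamini-Hochberg adjusted p = 0.02, quasi-likelihood test of edgeR). With library totals without TMM the call was lost at -0.07 (Benjamini-Hochberg adjusted p = 0.32, quasi-likelihood test of edgeR), and it was lost without ZT8 at -0.12 (adjusted p = 0.11 by the same test and adjustment).

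The count of 16 depended on single libraries and time points. Without replicate 1 of WT at ZT4, 30 of 39 genes were called, 29 higher and 1 lower. Without the time point ZT4 26 were called, 25 of them higher. It fell to 13 without replicate 3 of WT at ZT12 and to 11 without the time point ZT12. The share of all genes called in these fits is not given here. Without both libraries of this diet that stood apart, a fit chosen after seeing the data, 27 were called, 26 higher and 1 lower, of 40 tested. Over all genes that fit called 4233 of 13193 in either direction, against 4297 of 13041 with all libraries.

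The genotypes were also compared at each time point on caloric restriction, in groups of 3, and no test compared the time points with each other. At ZT12, 10 of 39 genes were called, all 10 higher in GR LKO, against 15.3% of the 11759 genes tested in either direction, and the median log2 fold change was 0.52 against 0 over all genes. At ZT16 the count was 2 (4.54% of all genes called), Zbp1 and Gbp3, both higher. At ZT8 it was 1 (2.55% of all genes called), Ifi27, which was lower. At ZT0, ZT4 and ZT20 it was 0 by edgeR, with 0.502%, 0.69% and 1.47% of all genes called, 17, 1 and 21 of the 39 genes at an unadjusted p under 0.05, and 3, 0 and 13 called by DESeq2. Over all genes DESeq2 called 439 of 17183, 435 of 17186 and 663 of 17158 at these time points. The median log2 fold change of the 39 was 0.28 at ZT0, -0.13 at ZT4, -0.08 at ZT8, 0.26 at ZT16 and 0.79 at ZT20. At ZT4 and ZT20 it rested on the libraries that stood apart: it was 0.43 at ZT4 without WT replicate 1, a change of sign, and 0.32 at ZT20 without GR LKO replicate 1. At ZT8 it was 0.04 without WT replicate 3, again a change of sign, and -0.16 without WT replicate 2.

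At ZT12 on caloric restriction, Zbp1 measured 1.19, 1.32 and 1.57 CPM in WT and 3.74, 3.85 and 5.19 CPM in GR LKO livers. The GR LKO livers were all above the WT livers (log2 fold change 1.63 ± 0.25, Benjamini-Hochberg adjusted p = 0.0066, quasi-likelihood test of edgeR). Ifit1 measured 1.19, 2.30 and 0.953 CPM in WT and 3.16, 3.97 and 6.29 CPM in GR LKO livers, without overlap (log2 fold change 1.59 ± 0.41, Benjamini-Hochberg adjusted p = 0.04, quasi-likelihood test of edgeR). Usp18 measured 5.07, 3.28 and 1.95 CPM in WT and 8.87, 7.41 and 13.0 CPM in GR LKO livers. Livers varied within both groups, but each WT liver was below every GR LKO liver (log2 fold change 1.51 ± 0.36, Benjamini-Hochberg adjusted p = 0.033, quasi-likelihood test of edgeR). Ifi44 measured 0.914, 1.39 and 0.785 CPM in WT and 2.01, 2.38 and 3.24 CPM in GR LKO livers, also apart (log2 fold change 1.30 ± 0.33, Benjamini-Hochberg adjusted p = 0.038, quasi-likelihood test of edgeR). The other genes called at ZT12, named after their values were seen, were Ifit3 (0.95), Irf1 (0.55), Bst2 (0.56), Psmb10 (0.69) and the GTPases Gbp3 (1.26) and Irgm2 (0.77).

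At ZT16, Zbp1 measured 2.77, 4.24 and 3.59 CPM in WT and 10.3, 10.6 and 12.8 CPM in GR LKO livers. No WT liver came near a GR LKO liver (log2 fold change 1.68 ± 0.19, Benjamini-Hochberg adjusted p = 0.004, quasi-likelihood test of edgeR). Gbp3, a guanylate-binding GTPase named after its value was seen, measured 1.81, 3.16 and 1.74 CPM in WT and 5.88, 7.34 and 5.70 CPM in GR LKO livers (log2 fold change 1.5 ± 0.27, Benjamini-Hochberg adjusted p = 0.024, quasi-likelihood test of edgeR). Its groups were also separate. Ifi27 at ZT8, named after its value was seen, measured 67.0, 62.7 and 85.7 CPM in WT and 44.8, 43.4 and 42.7 CPM in GR LKO livers, all 3 below WT (log2 fold change -0.71 ± 0.12, Benjamini-Hochberg adjusted p = 0.028, quasi-likelihood test of edgeR). At ZT20, Ifit1 measured 3.12, 11.4 and 8.42 CPM in WT and 33.6, 26.3 and 14.3 CPM in GR LKO livers. The groups did not overlap but each spread widely, and the difference did not pass the test (log2 fold change 1.71 ± 0.47, Benjamini-Hochberg adjusted p = 0.12, quasi-likelihood test of edgeR).

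These counts at single time points moved with single libraries. At ZT12 the 10 became 6, 6 and 1 without WT replicate 1, 2 and 3, and 5, 4 and 1 without GR LKO replicate 1, 2 and 3. Zbp1 was called in 6 of 6 of these fits, Usp18 in 2, Ifit1 and Ifi44 in 1 each and the other genes called at ZT12 in 1 to 3. The call of Ifi44 was also lost without a filter, with a replicate block and in a fit over all libraries of the diet. Scaling without TMM gave 17 at ZT12 and moved the median of all genes by 0.156. At ZT16 the 2 became 4 without WT replicate 2 and 1 without any other of the 6 libraries, with 5 by DESeq2. At ZT8 the 1 became 0 without WT replicate 1 and without each of the 3 GR LKO replicates, and at ZT20 a fit over all libraries of the diet called 11 in place of 0. Calls over all genes also rose in that fit, to 1127 of 13041 from 178 of 12076.

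**Figure D2:**
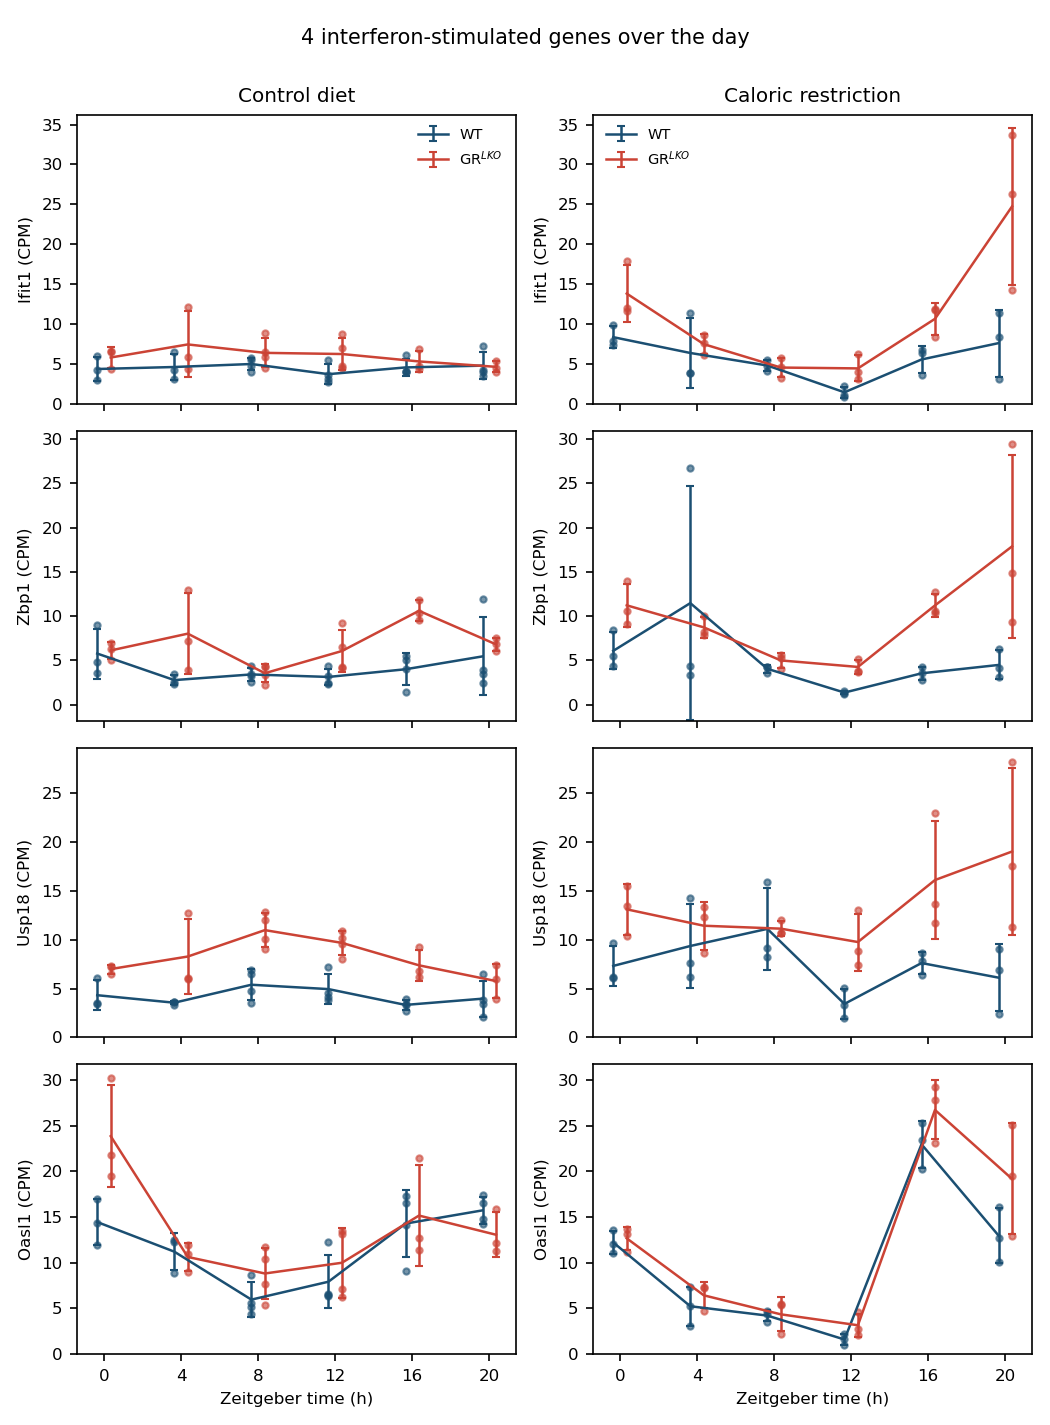
CPM (vertical axis) of Ifit1, Zbp1, Usp18 and Oasl1 against zeitgeber time in hours (horizontal axis) for WT and GR LKO livers, with the control diet on the left and caloric restriction on the right. Points are livers, lines join the means, bars are the SD of 3 or 4 livers, and the diets are separate sets of libraries. On caloric restriction WT livers have their lowest mean at ZT12 for all 4 genes, and a WT liver at ZT4 reached 26.7 CPM for Zbp1.

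Markers of several cell types differed at ZT12 as well. On caloric restriction the Kupffer cell and macrophage markers summed to 63.5, 101 and 72.4 CPM in WT and 170.3, 139 and 180.5 CPM in GR LKO livers at ZT12, without overlap, and 7 of 11 were called higher with a median log2 fold change of 1.1. Clec4f was the most abundant, and none was at 0. The lymphocyte markers were too low to test there, with sums of 0.843, 1.055 and 1.06 CPM in WT and 1.21, 1.176 and 1.71 CPM in GR LKO livers and Nkg7 at 0 in WT. The hepatocyte sums at ZT12 were 161900, 160200 and 164800 CPM in WT and 123900, 131900 and 115800 CPM in GR LKO, all 3 lower, with 4 of 7 called lower. The endothelial sums were 173, 161 and 190.4 CPM in WT and 223, 212 and 236 CPM in GR LKO, all 3 higher, with 2 of 6 called higher. The neutrophil sums were 0.486, 0.580 and 0.617 CPM in WT and 1.91, 1.19 and 1.92 CPM in GR LKO, also all higher, with 1 of 1 tested called higher, Csf3r the most abundant and Ly6g at 0 in both. The cholangiocyte sums did not overlap either, at 26.4, 31.1 and 28.9 CPM in WT and 31.4, 32.4 and 31.7 CPM in GR LKO, while those of stellate and of monocyte and dendritic markers did. At ZT16 the Kupffer cell and macrophage sums were 142, 196 and 177 CPM in WT and 209.9, 185 and 151 CPM in GR LKO, which overlap, and 0 of 11 were called by edgeR, with 0 at an unadjusted p under 0.05. Hepatocyte (lower), neutrophil (higher) and lymphocyte (higher) sums were without overlap there. At ZT8 the hepatocyte sums were 132200, 112800 and 112100 CPM in WT and 110400, 105100 and 106900 CPM in GR LKO, all 3 lower. The endothelial sums at ZT8 were 157.7, 170.2 and 165 CPM in WT and 200.1, 208.1 and 220.5 CPM in GR LKO, all 3 higher. The sums of the other lists overlapped at ZT8. In the mean over time points 0 of 11 Kupffer cell and macrophage markers were called by edgeR, with 4 at an unadjusted p under 0.05. There 6 of 6 endothelial markers were called higher and 4 of 7 hepatocyte markers lower, and the mean sums in GR LKO were higher for endothelial and lower for hepatocyte markers at 6 of 6 time points. Of the other lists, 1 of 3 neutrophil, 1 of 6 lymphocyte, 1 of 5 stellate and 1 of 4 cholangiocyte markers tested were called higher, and 0 of 4 monocyte and dendritic markers were called. The part of these cells in the genotype difference was not tested.

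**Figure D3:**
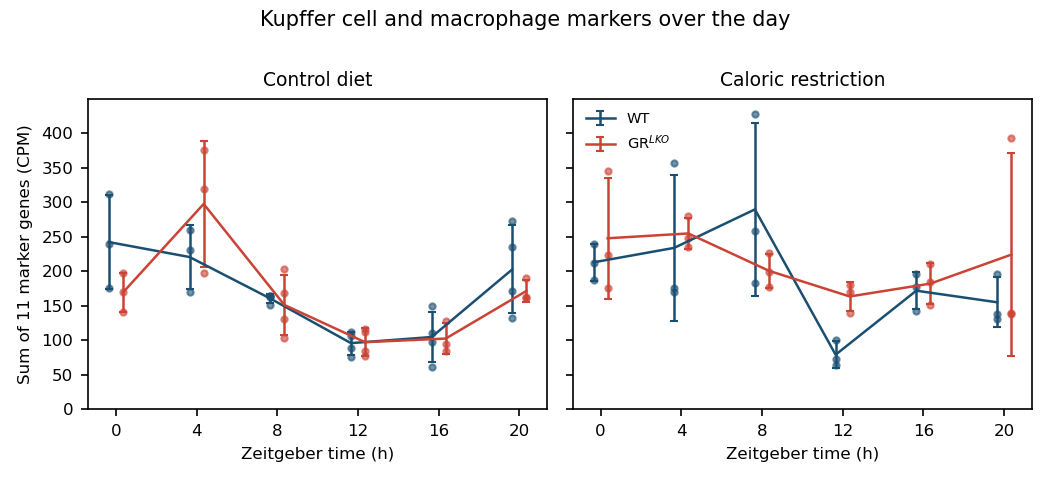
Summed CPM of 11 Kupffer cell and macrophage markers (vertical axis) against zeitgeber time in hours (horizontal axis) for WT and GR LKO livers on the control diet (left) and caloric restriction (right). Points are livers, lines join the means and bars are the SD of 3 or 4 livers. At ZT12 on caloric restriction the 3 GR LKO livers lie between 139 and 181 CPM, above the 3 WT livers at 63.5 to 101 CPM.

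On the control diet, the mean over time points was called higher in 8 of 39 genes and lower in 0 by edgeR, where 10% of the 12834 genes tested were called higher and 8.59% lower. The median log2 fold change of the 39 was 0.13 against 0 over all genes, and 14 of 39 had an unadjusted p under 0.05. The 8 were Usp18, Zbp1, Ifit1, Ifit3, Bst2, Lgals3bp, Psmb10 and Dtx3l, so 5 of them are antiviral effectors. Hepatocyte markers moved beside this, with 5 of 7 called lower in the mean over time points and a lower mean sum in GR LKO at 5 of 6 time points. At ZT4 these sums were 91510, 92970 and 95260 CPM in WT and 70950, 69910 and 77260 CPM in GR LKO, without overlap, and at ZT20 the GR LKO mean was the higher, at 82280 CPM against 81250 CPM. EdgeR called 0 of 11 Kupffer cell and macrophage markers and 0 of 6 endothelial markers, with 0 and 2 at an unadjusted p under 0.05. The part of these cells was not tested.

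Usp18 ranged from 2.09 to 7.25 CPM with a median of 3.77 in 22 WT livers and from 3.90 to 12.8 CPM with a median of 7.69 in 20 GR LKO livers. The ranges overlap between 3.90 and 7.25 CPM, and the mean was higher in GR LKO at 6 of 6 time points (log2 fold change 0.93 ± 0.12, Benjamini-Hochberg adjusted p = 4.9e-07, quasi-likelihood test of edgeR). Zbp1 ranged from 1.41 to 12.0 CPM with a median of 3.46 in WT and from 2.22 to 12.9 CPM with a median of 6.44 in GR LKO livers, with wide overlap and a higher mean at 6 of 6 time points (log2 fold change 0.72 ± 0.18, Benjamini-Hochberg adjusted p = 0.0031, quasi-likelihood test of edgeR). Ifit1 ranged from 2.71 to 7.33 CPM with a median of 4.21 in WT and from 4.04 to 12.2 CPM with a median of 5.63 in GR LKO livers. The overlap was wide again, and the mean of log2 CPM was higher at 6 of 6 time points, the mean of CPM at 5 (log2 fold change 0.39 ± 0.13, Benjamini-Hochberg adjusted p = 0.035, quasi-likelihood test of edgeR). Ifit3, which forms a complex with Ifit1, ranged from 4.72 to 11.3 CPM with a median of 6.70 in WT and from 5.16 to 20.3 CPM with a median of 8.74 in GR LKO livers, also overlapping, with a higher mean at 6 of 6 time points (log2 fold change 0.37 ± 0.12, Benjamini-Hochberg adjusted p = 0.024, quasi-likelihood test of edgeR).

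At single time points on the control diet, Usp18 at ZT16 was the 1 gene called, where 1.98% of all genes were. It measured 2.72, 3.32, 3.37 and 3.92 CPM in WT and 6.14, 6.80 and 9.21 CPM in GR LKO livers. All GR LKO livers were above WT (log2 fold change 1.15 ± 0.20, Benjamini-Hochberg adjusted p = 0.034, quasi-likelihood test of edgeR). At ZT0, ZT4, ZT8, ZT12 and ZT20 edgeR called 0 of 39, with 0.536%, 0.195%, 1.43%, 2.08% and 0.42% of all genes called, 4, 8, 7, 9 and 0 of the 39 at an unadjusted p under 0.05, and 0, 0, 2, 2 and 0 called by DESeq2.

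The calls on the control diet were also sensitive. The count of 8 became 4 without ZT4, 5 without ZT8 and 5 without ZT12, and 15 (14 higher and 1 lower) without the libraries that stood apart, a fit chosen after seeing the data. Over all genes the latter fit called 2359 of 12929, against 2389 of 12834 with all libraries. Without replicate 3 of GR LKO at ZT4 the calls of Ifit1 (0.30) and Ifit3 (0.28) were lost, and that of Ifit1 was lost in 12 of 42 fits that left out a library and in 5 of 6 that left out a time point. That of Dtx3l was lost in 26 of 48 such fits, with a replicate block, without a filter and without the libraries that stood apart. At ZT16 the call of Usp18 was lost without each of the 7 libraries, and without WT replicate 1 Zbp1 (1.1) was called instead. At ZT12 Usp18 (1.21) was called without WT replicate 4. The medians of the 39 genes at ZT0, ZT4 and ZT20 on this diet were -0.04, 0.32 and -0.04, and without the library that stood apart at each they were 0.24, 0.13 and 0.09. Other libraries moved them too. At ZT4 the median was 0.51 without GR LKO replicate 2. At ZT0 it was 0.09 without GR LKO replicate 1, a change of sign, and -0.17 and -0.15 without WT replicate 1 and 2. At ZT20 it was -0.11 without WT replicate 2.

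**Figure D4:**
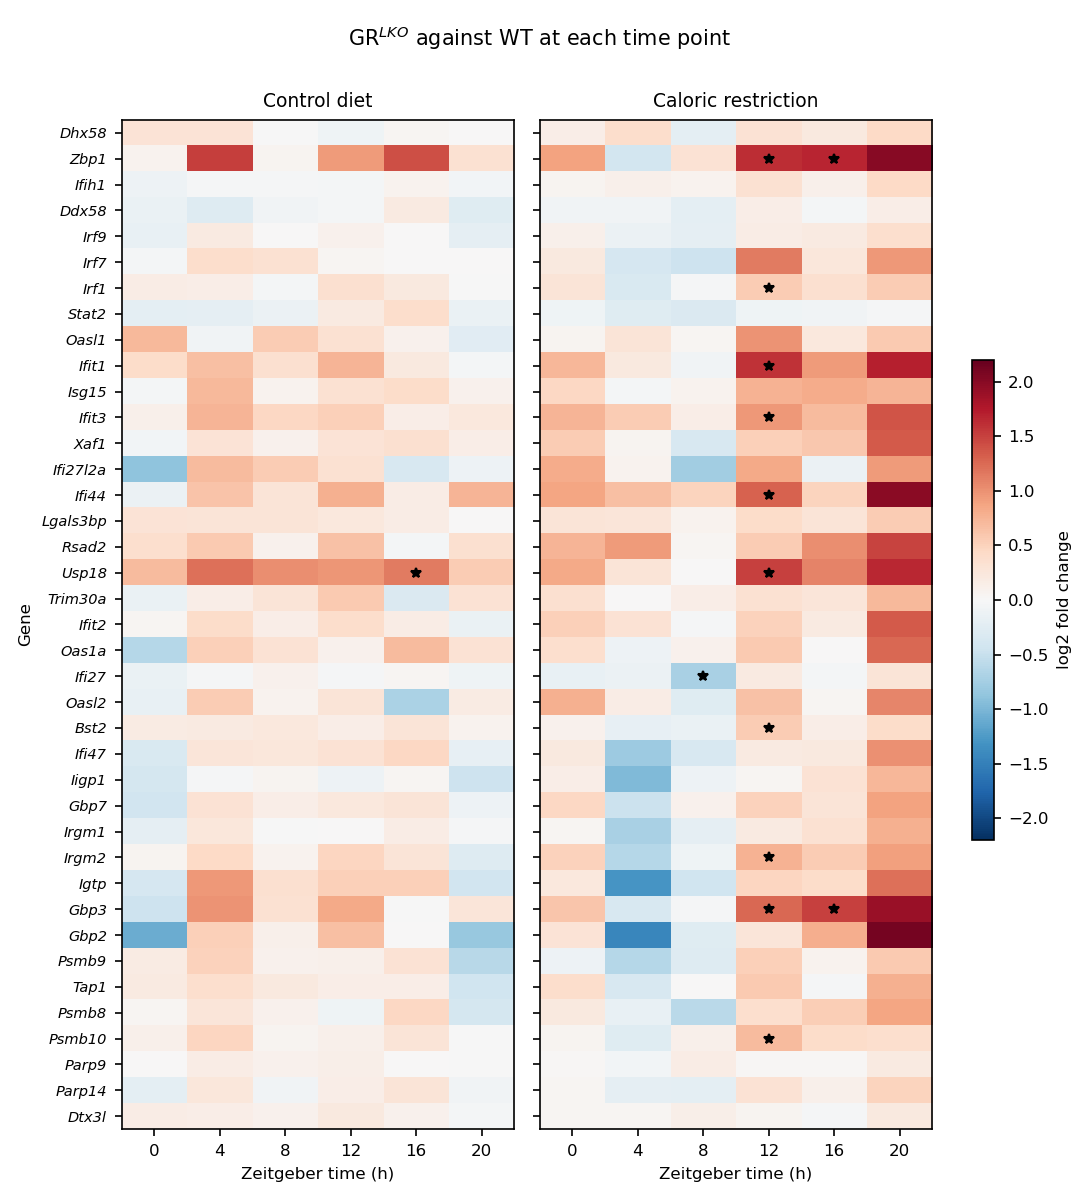
Log2 fold change of GR LKO against WT (color) for 39 interferon-stimulated genes (vertical axis) at each zeitgeber time in hours (horizontal axis) on the control diet (left) and caloric restriction (right). Each cell compares 3 or 4 livers with 3 or 4, and stars mark an adjusted p under 0.05 by edgeR: 10 genes at ZT12, 2 at ZT16 and 1 at ZT8 on caloric restriction and 1 at ZT16 on the control diet.

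Whether the genotype difference itself depended on diet was tested by the interaction over all 78 libraries of the time series. EdgeR called 0 of 39 genes, where 3.01% of the 13376 genes tested were called, with 4 of 39 at an unadjusted p under 0.05 and 0 by DESeq2. The median of the interaction over the 39 genes was 0.14 on the log2 scale, against 0 over all genes. The genotype difference of Zbp1 was larger on caloric restriction by 0.29 ± 0.27, that of Ifit1 by 0.46 ± 0.22 and that of Ifi44 by 0.55 ± 0.28, while that of Usp18 differed by -0.04 ± 0.20. None of these passed the test, so the higher counts on caloric restriction are not shown to differ from those on the control diet. Without ZT4 the count was 1.

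Other genes of the pathway stand beside 15.6% of all genes called higher and 17.3% lower on caloric restriction, and 10% and 8.59% on the control diet. The mean over time points on caloric restriction was called higher in 5 of 9 receptors and kinases (Il10rb 0.43, Ifnar2 0.19, Ifngr1 0.25, Ifnar1 0.15 and, named after its value was seen, Ifngr2 0.15) and lower in 0. With the control diet, Jak1 (-0.12) and Stat3 (-0.12) were lower, and 0 of 9 higher. Of 17 inducers and inhibitors on caloric restriction, Irf2 (-0.19) and Nfkbia (-0.24) were lower and Ciita (0.80), a regulator of MHC class II genes, higher. Lower on the control diet were Irf5 (-0.44), Irf2 (-0.18) and Nfkbia (-0.20), and higher was Mavs (0.13), of 16. Of 38 further interferon-stimulated genes, 11 were higher and 2 lower (Ifi35 -0.24 and, named after its value was seen, Ifitm2 -0.15) on caloric restriction, with Ube2l6 at 0.43 ± 0.06 and Ifit3b at 0.70 ± 0.13. Control-diet livers had 4 higher (Cmpk2 0.51, Ube2l6 0.23 and, named after their values were seen, Apol9b 0.33 and Ifit3b 0.42) and 2 lower (Ifitm2 -0.13 and Adar -0.15). Of 18 antigen presentation genes, 5 were higher and 1 lower on caloric restriction and 6 higher on the control diet, with the proteasome activator Psme1 at 0.36 ± 0.04 and 0.33 ± 0.04.

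Time of day was tested within each diet and genotype as any difference between the 6 time points. In WT livers on caloric restriction, 30 of 39 genes were called, where 64.3% of the 12624 genes tested were. In GR LKO livers on caloric restriction it was 29 of 39 (60.5% of all genes), in WT on the control diet 18 of 39 (50% of all genes) and in GR LKO on the control diet 13 of 39 (42% of all genes). The shares of the 39 genes, 46.2% and 33.3% on the control diet, lie below those of all genes, and on caloric restriction, 76.9% and 74.4%, above them. The median ratio of the highest to the lowest time point mean over the 39 genes was 3.24 in WT and 2.53 in GR LKO under caloric restriction and 1.62 and 1.66 on the control diet, against 1.70, 1.69, 1.49 and 1.49 over all genes. Without the libraries that stood apart the 4 medians of the 39 genes were 2.43, 2.18, 1.51 and 1.55, a choice made after seeing the data.

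On caloric restriction the low point was shared. In WT livers 30 of 39 genes had their lowest mean at ZT12, where 26.2% of all genes had theirs, and in GR LKO livers 27 of 39 did, against 22.7% of all genes. Both counts, 30 and 27, were the same without the libraries that stood apart. Cell markers had their extremes at ZT12 too: in WT livers on caloric restriction the Kupffer cell and macrophage sum had its lowest mean there, at 78.9 CPM against 155 to 289.6 CPM at the other time points, and the lymphocyte sum its lowest, at 0.988 CPM. The neutrophil and cholangiocyte sums were also lowest there, and the endothelial and stellate sums were not. The monocyte and dendritic sum was lowest there by a small step, at 2.215 CPM against 2.227 CPM at ZT16. The hepatocyte sum had its highest mean there, at 162300 CPM. In GR LKO livers the Kupffer cell and macrophage sum was also lowest at ZT12, at 163 CPM. The lymphocyte, neutrophil and cholangiocyte sums of these livers were lowest there too, at 1.365, 1.676 and 31.84 CPM. Their hepatocyte sum was highest there, at 123900 CPM, and their monocyte and dendritic, endothelial and stellate sums were not lowest there. The part of these cells in the low point was not tested. The high point rested on the libraries that stood apart: 19 of 39 WT genes had their highest mean at ZT4 with replicate 1 and 0 without it, when 19 had it at ZT0, and 32 of 39 genes in GR LKO had it at ZT20 with replicate 1 and 13 without. Without the time point ZT12, 12 of 39 genes were called in WT on caloric restriction.

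Oasl1 in WT livers on caloric restriction measured 2.18, 1.60 and 1.01 CPM at ZT12 and 25.3, 20.2 and 23.4 CPM at ZT16. The livers of ZT12 and ZT16 were fully separate, and the other time points lay between 3.09 and 16.1 CPM (Benjamini-Hochberg adjusted p = 6.2e-07 over 6 time points, quasi-likelihood test of edgeR). Dhx58 measured 2.53, 3.48 and 2.30 CPM at ZT12 and 10.3, 15.2 and 16.6 CPM at ZT20. No liver of either time point came near the other (Benjamini-Hochberg adjusted p = 3.1e-06, quasi-likelihood test of edgeR). Ddx58 measured 12.9, 14.9 and 16.8 CPM at ZT12 and 36.1, 37.6 and 44.5 CPM at ZT16. All 15 livers outside ZT12 were above it, at 27.5 CPM or more (Benjamini-Hochberg adjusted p = 5.2e-06, quasi-likelihood test of edgeR). Parp9 measured 33.8, 29.1 and 32.6 CPM at ZT8 and 67.5, 65.7 and 78.05 CPM at ZT16. Its livers at ZT8 and ZT12 overlapped, and those of ZT16 were the highest (Benjamini-Hochberg adjusted p = 2.7e-05, quasi-likelihood test of edgeR).

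The same 4 genes were called in GR LKO livers on caloric restriction. There Oasl1 measured 2.76, 4.57 and 2.14 CPM at ZT12 and 23.1, 29.3 and 27.8 CPM at ZT16, again far apart. Dhx58 measured 3.22, 3.78 and 3.30 CPM at ZT12 and 21.7, 16.1 and 18.7 CPM at ZT20, also without overlap. Whether the shape over the day differs between genotypes was not tested.

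The 4 members with the smallest adjusted p over the day in WT livers on the control diet follow. Irgm1, a GTPase that also steers autophagy, measured 34.8, 35.4, 32.4 and 36.2 CPM at ZT12 and 53.6, 55.2 and 67.7 CPM at ZT0 in WT livers. All ZT0 livers were above all ZT12 livers (Benjamini-Hochberg adjusted p = 2.1e-04 over 6 time points, quasi-likelihood test of edgeR). Psmb10 went the other way, with 22.8, 24.5, 24.2 and 28.7 CPM at ZT12 and 13.3, 13.0 and 15.0 CPM at ZT4. Its livers at ZT12 were all above those at ZT4 (Benjamini-Hochberg adjusted p = 2.3e-04, quasi-likelihood test of edgeR). Lgals3bp measured 34.9, 38.0, 39.6 and 34.4 CPM at ZT12 and 56.6, 50.1, 54.7 and 65.1 CPM at ZT20, apart by a clear gap (Benjamini-Hochberg adjusted p = 2.8e-04, quasi-likelihood test of edgeR). Oasl1 measured 5.62, 4.35, 5.19 and 8.68 CPM at ZT8 and 17.4, 14.3, 14.7 and 16.5 CPM at ZT20. These livers did not overlap either (Benjamini-Hochberg adjusted p = 5.1e-04, quasi-likelihood test of edgeR). The lowest mean was at ZT12 for 17 of 39 genes in WT, against 23.7% of all genes, and for 8 of 39 in GR LKO, against 18.9% of all genes. In GR LKO more genes had it at ZT20 (11) and ZT16 (10). Some cell marker sums were lowest at ZT12 here too. In WT the mean Kupffer cell and macrophage sum was 95.7 CPM there, against 104.5 to 242 CPM at the other time points. The lymphocyte sum was 2.29 CPM against 3.56 to 8.10 CPM, and the endothelial sum 81.8 CPM against 106 to 173 CPM. The stellate sum was 99.7 CPM against 162 to 239 CPM, and the monocyte and dendritic sum was also lowest at ZT12. The WT neutrophil and cholangiocyte sums were lowest at ZT16 and the hepatocyte sum at ZT20. In GR LKO the Kupffer cell and macrophage, lymphocyte, endothelial, stellate and hepatocyte sums were lowest at ZT12. The GR LKO neutrophil sum and the monocyte and dendritic sum were lowest at ZT16, and the cholangiocyte sum at ZT4. The part of these cells was not tested. Without ZT8 the count of 18 in WT became 11 and without ZT12 it became 10, and without ZT16 the count of 13 in GR LKO became 8.

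The position of these genes in the genome is partly shared. Ifit1, Ifit2 and Ifit3 lie within 100 kb of each other on chromosome 19, Oasl1 and Oasl2 on chromosome 5, Ifi27 and Ifi27l2a on chromosome 12, Gbp2, Gbp3 and Gbp7 on chromosome 3, Igtp and Irgm2 on chromosome 11, Psmb8, Psmb9 and Tap1 on chromosome 17 and Parp9, Dtx3l and Parp14 on chromosome 16. Such neighbours need not move alike: with caloric restriction in WT livers Gbp7 was at -1.41 ± 0.11 and Gbp2 at 0.15 ± 0.14, and with CORT Oasl1 was at -1.75 ± 0.29 and Oasl2 at 0.17 ± 0.33.

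Promoters of RefSeq (build GRCm38.p6), 250 bases before to 50 after the start, were available for 31 of the genes. The motif GAAANNGAA, the core of the interferon-stimulated response element, was found on either strand in promoters of 17 of 31 genes (54.8%), and of 9.76% of all 27025 genes with promoters, where a gene with several promoters counts if any matches. Counted by promoter it was 18 of 36 (50%), against 8.56% of 32851. The motif TTCNNNGAA, the gamma-activated site, was found for 8 of 31 genes (25.8%), against 9.55% of all genes, and ACANNNTGT, the core of the GR element, for 3 of 31 (9.68%), against 7.9% of all. The genes with ACANNNTGT were Gbp3, Ifi47 and Oasl1. GAAANNGAA and TTCNNNGAA can overlap in sequence, and a match describes letters only. Of the 3 genes with ACANNNTGT, Oasl1 was called lower with CORT, and Gbp3 and Ifi47 were not called. Whether a motif goes with a change in level was not tested. Shown are the promoters of Isg15, Ifit1 and Ifit3, which hold 3 GAAANNGAA each, and that of Oasl1, which holds ACANNNTGT. Each runs 5′ to 3′ in the direction of the gene, and capitals mark the motif on either strand (GAAANNGAA in the first 3, ACANNNTGT in Oasl1). They lie at chr4:156200769-156201068 on the minus strand (Isg15), chr19:34640639-34640938 (Ifit1), chr19:34583279-34583578 (Ifit3) and chr5:114922990-114923289 (Oasl1) on the plus strand.
Isg15: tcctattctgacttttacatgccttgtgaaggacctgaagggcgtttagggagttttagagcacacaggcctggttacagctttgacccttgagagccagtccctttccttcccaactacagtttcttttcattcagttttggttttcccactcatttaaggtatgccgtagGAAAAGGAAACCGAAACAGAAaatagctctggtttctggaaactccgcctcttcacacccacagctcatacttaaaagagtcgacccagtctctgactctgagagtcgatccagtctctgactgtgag
Ifit1: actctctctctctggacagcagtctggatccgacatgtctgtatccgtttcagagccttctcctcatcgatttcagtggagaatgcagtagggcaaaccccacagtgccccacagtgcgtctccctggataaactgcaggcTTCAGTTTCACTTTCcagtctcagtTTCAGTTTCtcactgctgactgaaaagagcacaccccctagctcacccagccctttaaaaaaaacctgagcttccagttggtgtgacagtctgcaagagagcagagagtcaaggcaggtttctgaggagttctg
Ifit3: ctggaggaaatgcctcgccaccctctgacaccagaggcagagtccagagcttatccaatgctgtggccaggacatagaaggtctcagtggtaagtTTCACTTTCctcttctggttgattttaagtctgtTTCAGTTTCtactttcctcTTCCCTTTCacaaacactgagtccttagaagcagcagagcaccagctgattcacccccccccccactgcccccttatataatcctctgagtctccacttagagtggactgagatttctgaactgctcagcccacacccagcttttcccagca
Oasl1: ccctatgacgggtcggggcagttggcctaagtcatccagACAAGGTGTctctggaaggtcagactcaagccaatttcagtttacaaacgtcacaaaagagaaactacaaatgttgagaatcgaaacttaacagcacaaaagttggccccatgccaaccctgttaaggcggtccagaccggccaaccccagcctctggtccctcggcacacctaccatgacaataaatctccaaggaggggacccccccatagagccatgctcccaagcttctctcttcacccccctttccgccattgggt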

How the data were processed

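Liver RNA of 90 mice was sequenced, and the deposited tables hold estimated counts that the authors made with Salmon 1.8.0, per the labels. Tables of variance-stabilized values were not used. Counts were fitted in R 4.3.3 with edgeR 4.0.16 (TMM scaling, filterByExpr with a minimum count of 10, quasi-likelihood test, Benjamini-Hochberg threshold 0.05). DESeq2 1.42.0, no filter, library totals without TMM, a replicate block, a fit over all libraries of a diet and leaving out each library or time point were tried as alternatives. CPM are over TMM-scaled totals within each table, and exon lengths and positions are from GENCODE M21. Library totals were 10.1 to 39.5 M counts. The rule for named genes was, for the diet, CORT and both mean genotype comparisons, up to 4 called members with the largest absolute log2 fold change per direction, members called in the interaction, for time of day the 4 members with the smallest adjusted p in each WT group, and for each other list up to 4 genes with the smallest adjusted p. Other genes named were chosen after their values were seen. The members and lists were chosen with earlier results of these data known. Gbp6 was matched to no identifier and was left out.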

Additional observations from a re-analysis of the deposited data

Results flagged for a closer look

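In the 6 groups of 4 livers, 102 values of 17 named genes were checked for a liver far from the other 3, and 6 were found, where chance gives about 1 in 20. Dhx58 in GR LKO at ZT12 on the control diet was 8.27 CPM in replicate 3, with the nearest liver at 5.77 CPM. In WT livers on the control diet, Oasl1 at ZT12 was 12.3 CPM in replicate 1 against 6.61 CPM, and Ifit1 at ZT16 was 6.11 CPM in replicate 4 against 4.18 CPM. At ZT20, replicate 4 of WT on that diet held 16.2 CPM of Psmb9 against 7.18 CPM and 12.0 CPM of Zbp1 against 3.94 CPM. Dhx58 at ZT20 was low in WT replicate 2, at 7.67 CPM against 10 CPM for the nearest liver.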

How the results depend on the processing

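Of the counts of genes called under another setting, 332 stayed within 1.5 times the reported count and 60 did not. The 2609 values of single genes include the GR controls Nr3c1, Fkbp5 and Tsc22d3, which were not counted apart. They also include time-of-day tests, which have no direction. Of these values, 2368 kept the call and any direction, 237 lost the call without a change of direction, and 4 changed sign. The cause was not tested for any of them. With the WT ZT12 libraries of the time series, caloric restriction changed 19 genes instead of 33, and the sign changed for Gbp3 (0.23), Ifi44 (0.09), Rsad2 (0.66) and Trim30a (0.53). Over all genes those libraries gave 4398 calls of 11550 tested. DESeq2 gave, for GR LKO against WT on caloric restriction, 3 genes at ZT0, 5 at ZT16 and 13 at ZT20, and on the control diet 2 at ZT8, 2 at ZT12 and 4 at ZT16. A fit over all libraries of the diet gave, on caloric restriction, 0 at ZT8, 1 at ZT16 and 11 at ZT20, and 1 at ZT12 on the control diet. Over all genes it called, in the same order, 724, 1025 and 1127 of 13041, and 537 of 12834. Library totals without TMM gave 17 at ZT12 on caloric restriction, and 2 at ZT8 and 2 at ZT12 on the control diet. Without a filter the control diet at ZT8 gave 1. A replicate block gave 3 with CORT, 0 at ZT8 and 2 at ZT12 on caloric restriction, and 1 at ZT8 and 0 at ZT16 on the control diet. Livers share only a number. Deviations from the group mean correlated at -0.14 to 0.16 between livers with the same number, which cannot show whether they were handled together. Without the libraries that stood apart, chosen after seeing the data, the mean over time points gave 27 on caloric restriction and 15 on the control diet. Over all genes these fits called 4233 of 13193 and 2359 of 12929.

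Leaving out a library or time point gave these ranges: 32–35 for diet, 1–7 for CORT, and on caloric restriction 0–0 at ZT0, ZT4 and ZT20, 0–1 at ZT8, 1–6 at ZT12, 1–4 at ZT16 and 11–30 for the mean (26 without ZT4). On the control diet they were 0–0 at ZT0, ZT4, ZT8 and ZT20, 0–1 at ZT12, 0–1 at ZT16 and 4–11 for the mean (4 without ZT4, 5 without ZT8, 5 without ZT12). The interaction gave 0–1 (1 without ZT4). Time of day gave 12–37 in WT (12 without ZT12) and 27–36 in GR LKO on caloric restriction, and 10–21 in WT (11 without ZT8, 10 without ZT12) and 8–18 in GR LKO (8 without ZT16) on the control diet. Leaving out single libraries in the time-of-day tests was added after seeing the data. Counts of 3 equal 0.076–0.0823 CPM in the diet experiment, 0.187–0.218 CPM with CORT, 0.144–0.211 CPM on caloric restriction and 0.176–0.298 CPM on the control diet of the time series.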
